A study of Mus musculus with 6 samples.

Results

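The genes examined encode 35 chromatin remodeler proteins other than Smarcad1, namely the SWI/SNF, ISWI, CHD and INO80 complexes and 3 further SNF2 enzymes. Chromatin accessibility at these genes was measured in small intestinal crypts of mice with and without Smarcad1. Members were the peaks whose gene name in the table of all peaks equalled exactly 1 of the 35 symbols, which gave 162 of 123510 peaks, and 33 of the 35 genes had at least 1. The comparison asks whether the chromatin at other remodeler genes opens or closes when Smarcad1 is lost. No member peak passed the test for a difference between genotypes, and 0 of all 123510 peaks did. WT and KO values overlapped at every member promoter peak measured, and the 28 promoter peaks changed by a median log2 of 0.01. Over all peaks, every KO value lay above every WT value in 2.7% and below in 4.1%.

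ATAC-seq uses a transposase that cuts and tags accessible DNA, so that reads pile up over open promoters and enhancers. The study compared 3 WT libraries with 3 Smarcad1-KO libraries, all from nuclei of whole small intestinal crypts of C57BL/6 mice. In the KO, a Cre recombinase under the Villin promoter removed loxP-flanked exons 12 to 14 of Smarcad1, which the study describes as encoding residues needed for ATP binding. The age of the animals was not used here, and the labels do not say whether the WT mice carried Cre or loxP sites. Villin-driven Cre acts in the intestinal epithelium, so any other cells in a crypt preparation would keep Smarcad1. Whole crypts hold stem, progenitor and Paneth cells together, and a site open in fewer cells cannot be told apart from a site less open in each cell.

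Remodelers of the SNF2 family use ATP to slide, evict or exchange nucleosomes, and Smarcad1 is a member of that family. SWI/SNF complexes (BAF, PBAF and the non-canonical BAF) move and eject nucleosomes, ISWI complexes space them evenly, CHD proteins carry chromodomains and include the motors of the NuRD repressor complex, and INO80, SRCAP and EP400 complexes exchange or position histone variants such as H2A.Z. In the intestine, SWI/SNF and CHD enzymes are known for their part in keeping stem cells and setting cell identity.

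Promoter sequences are shown first for the genes whose promoters carried the highest level in their groups, to give the letters behind the levels described below. Each line holds the 250 bases before the RefSeq gene start (GRCm38.p6), read 5′ to 3′ on the gene's strand. Capitals mark GC boxes (GGGCGG) and CCAAT boxes (CCAAT) on either strand. Smarca5 at chr8:80739460-80739709, Chd6 at chr2:161109087-161109336 and Ep400 at chr5:110770718-110770967 lie on the minus strand. Hltf at chr3:20057561-20057810 and Smarca4 at chr9:21615919-21616168 lie on the plus strand, and Smarca4 was added after its values were seen, as the main SWI/SNF motor.
Smarca5 promoter: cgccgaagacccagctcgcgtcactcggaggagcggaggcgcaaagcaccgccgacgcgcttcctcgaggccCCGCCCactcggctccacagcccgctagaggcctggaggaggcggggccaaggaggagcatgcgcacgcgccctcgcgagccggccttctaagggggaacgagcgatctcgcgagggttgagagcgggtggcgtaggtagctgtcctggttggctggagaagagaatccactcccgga
Chd6 promoter: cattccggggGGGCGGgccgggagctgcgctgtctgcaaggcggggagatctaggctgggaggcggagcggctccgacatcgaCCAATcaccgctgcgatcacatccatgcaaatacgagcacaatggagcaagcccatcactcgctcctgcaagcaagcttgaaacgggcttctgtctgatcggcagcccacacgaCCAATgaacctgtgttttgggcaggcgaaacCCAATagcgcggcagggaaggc
Ep400 promoter: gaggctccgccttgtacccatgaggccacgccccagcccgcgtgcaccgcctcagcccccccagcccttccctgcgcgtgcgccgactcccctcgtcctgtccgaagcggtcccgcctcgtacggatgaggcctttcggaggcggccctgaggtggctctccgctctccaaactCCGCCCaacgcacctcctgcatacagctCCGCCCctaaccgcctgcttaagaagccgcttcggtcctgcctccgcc
Hltf promoter: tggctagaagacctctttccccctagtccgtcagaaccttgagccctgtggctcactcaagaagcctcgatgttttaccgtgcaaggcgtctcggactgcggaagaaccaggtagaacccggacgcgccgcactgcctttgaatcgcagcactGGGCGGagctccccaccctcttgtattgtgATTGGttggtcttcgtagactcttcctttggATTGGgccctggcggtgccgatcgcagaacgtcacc
Smarca4 promoter: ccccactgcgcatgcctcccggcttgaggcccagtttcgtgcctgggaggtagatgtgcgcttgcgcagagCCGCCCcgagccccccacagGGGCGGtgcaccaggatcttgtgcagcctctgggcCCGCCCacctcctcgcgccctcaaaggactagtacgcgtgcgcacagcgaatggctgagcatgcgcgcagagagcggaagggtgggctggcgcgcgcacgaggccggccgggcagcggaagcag

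Open DNA at remodeler genes was unevenly spread, and gene length went with much of the spread. SWI/SNF genes held 74 peaks over 15 genes, CHD genes 57 over 9, INO80 genes 13 over 3, ISWI genes 11 over 5, and the 3 other SNF2 genes (Hells, Smarcal1 and Hltf) 7. Per 10 kb of annotated gene this came to 0.605 peaks for SWI/SNF, 0.619 for CHD, 0.500 for INO80, 0.465 for the other SNF2 genes and 0.307 for ISWI, against 0.556 for all members. Arid1b, which encodes a BAF subunit, held 33 peaks over 353 kb, the most of any member. Chd9 held 14, and Chd6 and Chd7, which encode related CHD enzymes, held 13 each, so that these 4 genes carried 45.1% of the member peaks. Across the 35 genes, peak number and gene length had a Pearson r of 0.905 and a Spearman rho of 0.744, and r was 0.829 without Arid1b. This relation is a description across genes, which share all libraries and 1 set of peak calls.

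**Figure D1:**
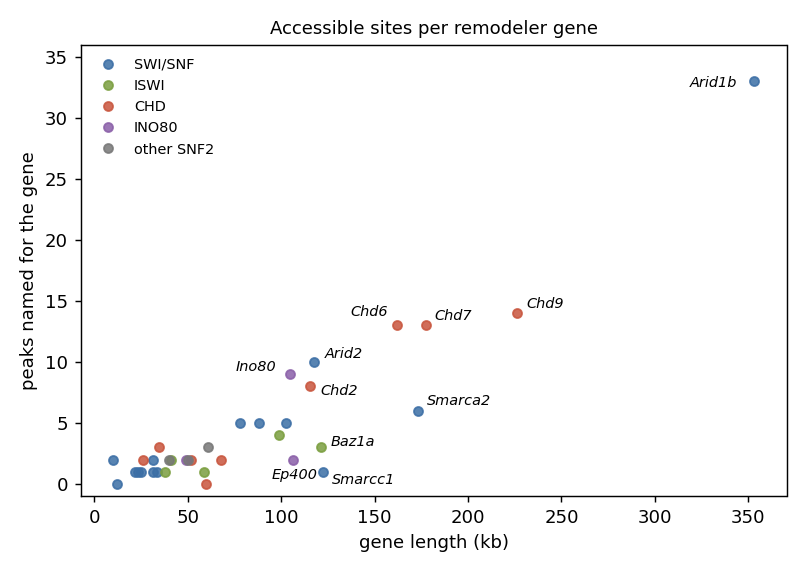
Number of peaks named for each of the 35 genes (y axis) against the length of the annotated gene in kb (x axis), with 1 point per gene coloured by complex. Arid1b stands at the upper right with 33 peaks, and Smarcc1 and Ep400 held 1 and 2 peaks at lengths over 100 kb.

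Length did not set the number alone. Smarcc1, a scaffold subunit of SWI/SNF, spans 122 kb and had 1 peak, while Arid2, a PBAF subunit of 117 kb, had 10. Ep400, the motor of the TIP60-EP400 complex, spans 106 kb with 2 peaks, while Ino80 spans 105 kb with 9. Of the 162 member peaks, 103 lay in introns and 49 overlapped exons. Among the 121 peaks more than 1 kb from an annotated start of their own gene, 101 (83.5%) were intronic.

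Smarcd1 and Chd8 were the members without a peak of their own name, and peaks near both starts carried a neighbour's name. The start of Chd8, an enzyme known for its binding to beta-catenin, lay inside a peak named for its neighbour Rab2b. That peak had 9.08, 8.52 and 9.46 log2 normalized reads per kb in WT and 9.14, 8.43 and 9.71 in KO, so the genotypes overlapped. Its log2 fold change was 0.08 (limma, standard error 0.41, unadjusted p = 0.858, adjusted p = 1). Brd9 and Pbrm1, which define the non-canonical BAF and PBAF complexes, also had their starts in peaks named for neighbours (Trip13 and Gnl3), at WT means of 7.65 ± 0.30 and 8.03 ± 0.30 log2 reads per kb (SD, n = 3). For Smarcd1, the nearest peak was 1.03 kb from its start and carried the name Accn2. Baz2a, Arid2 and Chd5, the last known as a largely neuronal NuRD motor, had no peak at their start, the nearest being 7.48, 9.33 and 4.95 kb away.

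A missing peak says little about a promoter in this table. The starts of Actb, Gapdh, Vil1 and Epcam, active in crypt epithelium, lay in no peak, and of 21923 protein coding genes 11788 (53.8%) had their start in one. Among the 35 members, 26 (74.3%) did. The peaks over starts were read for cell type as well: 6 of 11 crypt epithelial marker genes had a start in a peak, against 0 of 6 immune genes and 0 of 6 stromal and endothelial genes. The immune genes did carry 9 peaks, and the stromal and endothelial genes 15. A peak within 1 kb of an annotated start was found for 1 and 2 of these genes, beside 7 of the crypt genes. Reads from immune and stromal cells were thus not shown to be absent, and their part in the member values was not tested.

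For levels, 1 promoter peak was taken per gene, the strongest within 1 kb of an annotated start, which was possible for 28 of the 35 members. These genes had 41 such peaks. The strongest was the one with the highest mean per kb over all 6 libraries, so KO values entered the choice. Levels are log2 normalized reads per kb of peak. The median over the 28 was 7.95, and 19 of them stood above 7.31, the median of the strongest promoter peak over 13738 named genes. INO80 genes had a median of 8.15 (8.003 to 9.64, 3 genes) and CHD genes 8.18 (7.08 to 8.72, 7 genes). ISWI genes had 7.91 (4 genes), the other SNF2 genes 7.90 (3 genes) and SWI/SNF genes 7.17 (6.52 to 8.75, 11 genes), the lowest of the groups. The medians of the 3 WT libraries had an SD of 0.16 for INO80, 0.31 for CHD, 0.35 for ISWI, 0.65 for the other SNF2 genes and 0.23 for SWI/SNF. Genes for the ATPase motors had a median of 8.14, and genes for other subunits 7.39. The CHD, INO80 and other SNF2 members are all motors, while most SWI/SNF members are other subunits. The order of the groups and the contrast of motors with other subunits thus largely cannot be told apart.

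**Figure D2:**
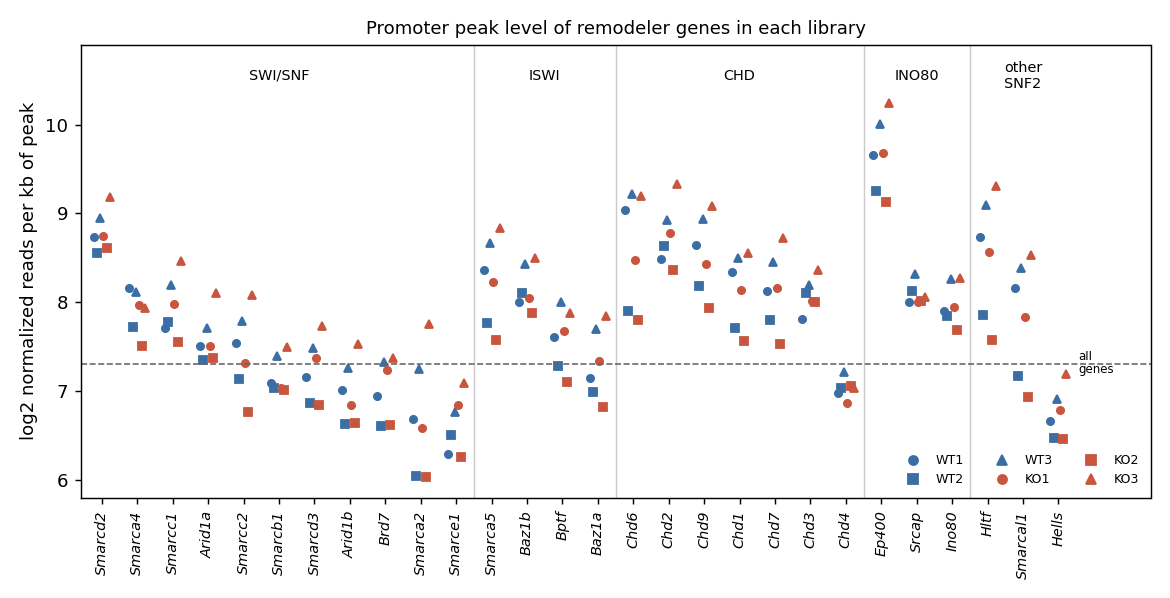
Level of the strongest promoter peak of each of 28 genes in log2 normalized reads per kb (y axis, from 5.8), with 1 point per library (blue WT, red KO, shape by library number) and genes grouped by complex. The dashed line is 7.31, the median over all named genes. Ep400 stands highest, and in 20 of 28 genes library 3 is highest and library 2 lowest within WT and within KO.

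Ep400 had the highest promoter peak of the members, at 9.66, 9.25 and 10.0 in WT and 9.68, 9.12 and 10.2 in KO, above 99.9% of promoter peaks. Its promoter is shown above, with GC content of 70% and GC boxes. Smarcd2, which encodes a SWI/SNF subunit known from granulocyte development, followed at 8.74, 8.56 and 8.95 in WT and 8.75, 8.61 and 9.19 in KO. In both genes the ranges of WT and KO overlapped. Chd6 at 8.72, Chd2 at 8.68 and Chd9 at 8.59 were next in WT mean, and Hltf, a DNA translocase of stalled replication forks, stood at 8.56.

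The spread between libraries was wider than these gaps for some genes. Chd6 ran from 7.90 to 9.22 in WT and from 7.80 to 9.20 in KO, and its place in the order does not differ beyond that spread from those of Chd2 and Chd9. Hltf ran from 7.86 to 9.10 in WT. The lowest promoter levels were those of Smarce1, a DNA-bending SWI/SNF subunit, at 6.29, 6.51 and 6.77 in WT, of Smarca2 at 6.69, 6.04 and 7.25, and of Hells, a remodeler known for its part in DNA methylation, at 6.66, 6.47 and 6.91. Ep400 exceeded Smarce1 by 3.11 on the log2 scale, or 8.65-fold.

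The peak used was not always at the outermost start. For 21 genes it covered that start, and for 7 it lay at an internal one. In Smarca2, the second SWI/SNF motor (BRM), the peak lay 143 kb downstream, so its level describes an internal promoter. In Chd9, Baz1a, Smarcd3, Smarcc1, Chd2 and Chd3 the peak lay 79.0, 27.6, 20.7, 13.8, 3.28 and 2.36 kb from the outermost start. That of Baz1a also covers the start of Gm20403.

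Pairs of paralogs or related genes were compared within each library, which cancels depth. Some can occupy the same place in a complex, while others, such as Ino80, Srcap and Ep400, belong to separate complexes. Both promoter peaks were present for 10 of 14 listed pairs, and each difference was tested over the 6 libraries by an exact two-sided sign-flip permutation test, whose smallest p is 0.0313, adjusted over the 10 pairs. In 8 pairs the difference had the same sign in 6 of 6 libraries (exact permutation p = 0.0313, adjusted p = 0.0391). These calls depend on dividing by peak width: taken per peak, 0 of the 10 pairs passed (smallest adjusted p = 0.0521 in the exact permutation test) and 3 of the 8 turned round. Smarca4, the BRG1 motor needed by intestinal stem cells, exceeded Smarca2 by 1.48, 1.68 and 0.86 in WT and by 1.38, 1.47 and 0.18 in KO on the log2 scale per kb. The mean was 1.17 ± 0.56 (SD, n = 6), or 2.25-fold, and KO3 gave the smallest gap. The Smarca2 value is that of its internal peak. Smarcc1, Smarcd3, Baz1a, Chd2, Chd3 and Chd9 also enter their pairs with a peak away from the outermost start. Smarcd2 exceeded Smarcd3, the muscle-associated paralog, by 1.56 ± 0.15 and in every library by at least 1.38.

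Among the scaffolds and DNA-binding subunits of SWI/SNF, Smarcc1 exceeded Smarcc2 by 0.51 ± 0.23 and Arid1a exceeded Arid1b by 0.61 ± 0.12. Both of these turned round to -0.13 and -0.74 when levels were taken per peak and not per kb. Baz1b, partner of Smarca5 in the WICH complex, exceeded Baz1a, its partner in ACF, by 1.81-fold. Chd2 exceeded Chd1 by 1.54-fold per kb, but Chd1 was the higher by 0.15 on the log2 scale per peak. Of the NuRD motors, Chd3 exceeded Chd4 by 2.07-fold. Chd4 is the main NuRD motor in most tissues, and its promoter values were 6.98, 7.04 and 7.22 in WT and 6.86, 7.06 and 7.04 in KO. Ep400 exceeded Srcap by 2.97-fold per kb, while Srcap minus Ep400 shrank from -1.57 to -0.44 on the log2 scale per peak (exact permutation p = 0.125). The pairs Chd6 and Chd9 (difference 0.07 ± 0.25, exact permutation p = 0.531) and Ino80 and Srcap (-0.10 ± 0.19, exact permutation p = 0.281) did not pass.

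The balance of paralogs did not pass a test between genotypes in any pair. KO minus WT of the difference ran from -0.33 for Smarca4 over Smarca2 to 0.21 for Smarcc1 over Smarcc2. Exact two-sided permutation p ranged from 0.3 to 0.7 (adjusted p = 0.7 in all 10 pairs), in a design of 3 against 3 whose smallest p is 0.1, so this test could not have reached 0.05.

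Depth and library composition differed within genotypes. Reads in peaks ran from 6180717 to 16301164 in WT and from 4339306 to 7721797 in KO, with KO3 the shallowest. On the first principal component (49.4% of the variance), the number 2 libraries scored 116 in WT and 117 in KO. KO1 scored 6.38, WT1 -22.8, WT3 -77.6 and KO3 -139, so KO3 lay at the other end. The median of promoter peaks exceeded that of other peaks by 1.57 in KO2 and 2.08 in KO3 on the log2 scale, and by 1.64 to 1.92 in WT. At the member promoters the same order was seen, with a number 3 library highest of the 6 in 27 of 28 and a number 2 library lowest in 25 of 28. The 4 peaks named for Smarcad1 changed by -0.14 to -0.01 (limma, smallest unadjusted p = 0.705), and accessibility at these peaks does not check the deletion of the exons.

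At the promoters, loss of Smarcad1 was not accompanied by a detectable change at any remodeler gene. The limma test across all peaks called 0 of 162 member peaks at an adjusted p below 0.05, as it called 0% of all peaks. With limma voom on the recovered reads, 0 member peaks and 3 of all peaks were called. Since limma called so few peaks anywhere in both of these fits, a count of 0 there sets the members apart from no other genes. Some alternative fits called more peaks over all and are given below. The paper does report sites of changed accessibility from its edgeR test, which was not repeated here. In 15 of the 28 promoter peaks the KO mean was higher and in 13 it was lower, and the median log2 fold change was 0.01 beside 0.01 for all promoter peaks. The largest values among the 28 were 0.20 for Smarce1 and -0.23 for Chd6. Promoter peaks of the same genes that were not chosen went further in places. The second Smarca2 peak was at -0.30, beside 0.13 for the one used, and had the higher WT level per kb (6.72 beside 6.66). Second peaks of Chd6 and Arid1a were at -0.25 and 0.21. Every one of the 28 differences was smaller than the larger of the WT and KO SDs, and unadjusted p ran from 0.502 to 0.977 in limma. The 95% intervals reached from -1.18 to 1.01 at their widest, which leaves room for changes of 0.442-fold to 2.02-fold in the least precise genes. A promoter peak held 43 to 1541 reads per library, so counting error differed between genes. It weighs most on Smarca2, Hells and Smarce1, with as few as 43, 44 and 46 reads in a library.

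**Figure D3:**
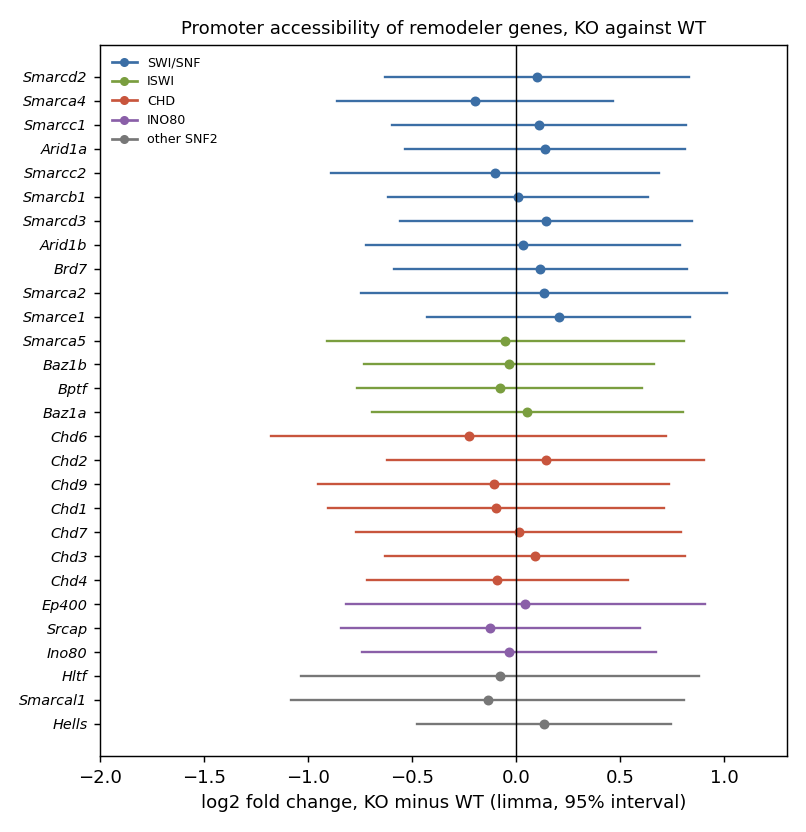
Log2 fold change of KO over WT (x axis, points) with its 95% interval from limma (lines) for the strongest promoter peak of 28 genes, coloured by complex. Every interval crosses 0, and points lie between -0.23 and 0.20.

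By complex, the promoter medians of KO minus WT were 0.11 for SWI/SNF (9 higher and 2 lower), -0.04 for ISWI (1 and 3), -0.09 for CHD (3 and 4), -0.03 for INO80 (1 and 2) and -0.08 for the other SNF2 genes (1 and 2). These are below the spread of library medians, which for SWI/SNF had SDs of 0.26 in WT and 0.41 in KO. The SWI/SNF median fell to -0.06 without WT2 and -0.13 without KO3, and rose to 0.23 without WT3 and 0.28 without KO2, so its direction rests on single libraries. Without both number 2 libraries it was 0.17, and the median over the 28 promoters was 0.05. Smarca4 itself was at 8.16, 7.72 and 8.12 in WT and 7.97, 7.50 and 7.94 in KO, so the groups overlapped, and the log2 fold change was -0.20 (standard error 0.31). Smarca5, the ISWI motor, was at 8.36, 7.77 and 8.67 in WT and 8.22, 7.58 and 8.84 in KO, a log2 fold change of -0.05. Ino80 was at 7.91, 7.84 and 8.26 in WT and 7.94, 7.69 and 8.28 in KO.

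Over all 162 member peaks, the median log2 fold change was 0.07 beside -0.02 over all peaks, and 97 (59.9%) had a higher KO mean beside 46.9% of all peaks. No member changed by more than 1 on the log2 scale, as 0.44% of all peaks did. At an unadjusted p below 0.05, 1 member peak was higher in KO, a share of 0.617% beside a background of 0.909%, and 0 were lower beside a background of 1.37%. All 3 KO values lay above all 3 WT values in 6 member peaks (3.70%, background 2.7%) and below them in 2 (1.23%, background 4.1%). None of these 8 peaks was a promoter peak. Without both number 2 libraries, 5 member peaks had an unadjusted p below 0.05 (3.09% beside 5.99% of all peaks). In that limma fit 0 member peaks were called, beside 143 over all peaks.

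The member peak with the smallest p lay in an exon of Chd7, whose loss in humans causes CHARGE syndrome. It had 6.06, 6.52 and 6.71 log2 normalized reads in WT and 7.15, 6.77 and 7.24 in KO, so that KO was higher throughout. Its log2 fold change was 0.62 (limma, standard error 0.28, unadjusted p = 0.0434, adjusted p = 1), on 34 to 105 reads per library. A second Chd7 peak, in an intron at chr4:8733601-8734350, had 5.62, 6.05 and 5.49 in WT and 6.45, 5.88 and 6.17 in KO, with overlap. Over the 13 peaks of Chd7, 8 means were higher and 5 lower, with a median of 0.05, and the promoter peak was at 0.01.

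In Arid1b, an intronic peak at chr17:5232151-5232600 had 4.67, 5.13 and 5.13 in WT and 5.58, 5.33 and 5.58 in KO (log2 fold change 0.52). Another at chr17:5125501-5125800 had 4.78, 4.34 and 4.46 in WT and 5.03, 5.16 and 5.00 in KO (0.54). In both, all KO values lay above all WT values, on as few as 8 reads in a library. Over the 33 Arid1b peaks, 24 KO means were higher and 9 lower, with values from -0.20 to 0.54. An intronic Smarca4 peak 58.1 kb from a start of the gene, at chr9:21693901-21694650, had 5.88, 6.05 and 6.17 in WT and 6.48, 6.38 and 6.46 in KO, also without overlap (0.41), while the other 4 Smarca4 peaks had lower KO means. Peaks without overlap and with smaller differences lay in Chd2 (0.19) and Smarcal1 (0.18).

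Chd6 gave the lower values. An intronic peak at chr2:161064751-161065350 had 6.06, 5.74 and 5.93 in WT and 5.71, 5.47 and 5.17 in KO (log2 fold change -0.46, standard error 0.26). The next, at chr2:161071051-161072550, had 6.97, 6.97 and 7.66 in WT and 6.55, 6.67 and 6.90 in KO (-0.49). In both, every KO value was below every WT value. A further peak at chr2:161032501-161032950 overlapped, at -0.58 on 9 to 39 reads. Among the 13 Chd6 peaks, including the promoter at -0.23, 7 had lower KO means and the median was -0.23.

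Arid2, which marks PBAF, had 7 lower and 3 higher means among 10 peaks, with a median of -0.18. Its intronic peaks at chr15:96334351-96334800 and chr15:96373201-96373650 were at -0.43 and -0.41, with overlapping groups. All 10 peaks described here had an adjusted p of 1 in limma and were chosen for their p, so their direction is a description. Ino80 had 7 higher and 2 lower means among 9 peaks, and Chd9 8 higher and 6 lower among 14.

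**Figure D4:**
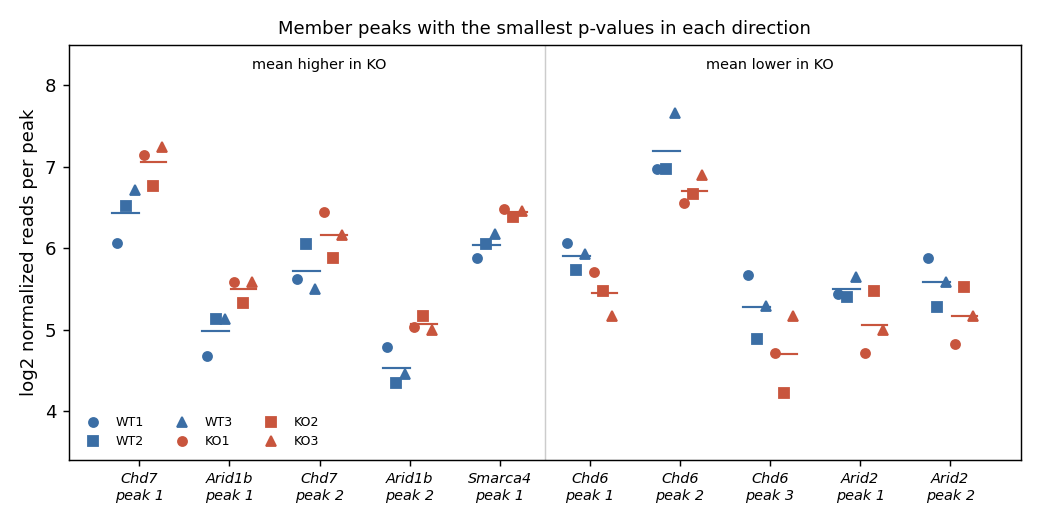
Log2 normalized reads per peak (y axis, from 3.4) in each library for the 5 member peaks with the smallest limma p in each direction, with 1 point per library and short lines for the group means. Of the 10 peaks, the WT and KO points are separate in 6, namely 1 of Chd7, 2 of Arid1b, 1 of Smarca4 and 2 of Chd6.

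The central 300 bases of the leading Chd6 peak, at chr2:161064901-161065200, are shown on the plus strand of GRCm38.p6, since this peak had the smallest p among those lower in KO. None of the 8 motifs searched was found in it, so no letter is in capitals.
Chd6 peak: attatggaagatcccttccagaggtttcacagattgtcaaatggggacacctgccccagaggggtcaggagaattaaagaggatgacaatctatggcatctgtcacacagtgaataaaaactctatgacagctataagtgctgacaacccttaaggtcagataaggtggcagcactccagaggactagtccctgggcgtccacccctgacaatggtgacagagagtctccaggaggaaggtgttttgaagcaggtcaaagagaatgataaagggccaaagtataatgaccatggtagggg

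The promoters share a base composition that the choice of genes did not use. Of the 28 genes with a promoter peak, 19 matched a RefSeq window of 250 bases before to 50 after the start that lay at the peak. These windows had a median GC content of 65.7% and 32 CpGs, beside 60.7% and 21 for 10815 other genes with a peak there and 55.0% and 11 for all 20595 windows. Member windows were taken at the strongest promoter peak of the gene. The other windows were those nearest the outermost start, overlapped by any peak of any level or name, so the 2 sets are not like for like. The GC box (GGGCGG, either strand), bound by SP factors, was present in 19 of 19, beside 63.9% of the other windows with a peak and 42.7% of all. The CCAAT box occurred in 6 of 19 (31.6%, beside 38.7%), in Baz1b, Chd4, Chd6, Hltf, Ino80 and Smarcal1. The NRF1 motif (GCGCATGCG) occurred in Smarcb1 and Smarcc1, the ETS motif (CCGGAAG) in Smarcc1 (5.26%, beside 17.9% of the other windows with a peak) and the YY1 motif (AAGATGG) in Bptf (5.26%, beside 7.15%). Letters for CRE (TGACGTCA), CDX (TTTATGG) and HNF4 (CAAAGTCC) were in none of the 19 windows, beside 3.37%, 1.77% and 1.52% of the others with a peak. Off the promoters the composition differed, and in the centres of the 116 member peaks farther than 1 kb from any gene start the GC box was in 6.90% and the HNF4 motif in 4.31%, beside 5.19% and 2.93% of 102315 other such peaks. The CCAAT box was in 31.9% beside 40.1%, the YY1 motif in 4.31% beside 7.18%, the CDX motif in 3.45% beside 4.86% and the ETS motif in 1.72% beside 1.54%. The NRF1 motif was in 1 of the 116 (0.862% beside 0.0713%) and the CRE motif in 0 (beside 0.204%).

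Other genes of these families were taken from a list of 60, of which 50 encode other proteins of the complexes and 10 are further SNF2 enzymes. Of these, 54 had 180 peaks in all, 0 were called in limma, and 5 peaks (2.78%, background 0.909%) were higher and 0 lower (background 1.37%) at an unadjusted p below 0.05. The count in both directions was 3 to 9 with 1 library left out. Without KO3 it was 4 higher and 4 lower and without WT2 6 higher and 3 lower. It was 3 without WT1 or KO1, 6 without WT3 and 8 without KO2, all higher. Median centring gave 8 higher and 0 lower, the trimmed mean of M values 7 and 1, and quantile normalization 8 and 1. Voom gave 8 and 2, as did promoter and other peaks centred apart, so the single direction rests on single libraries and on the processing. The 5 reported peaks lay in Mta3 (2 peaks), a NuRD subunit, in Bcl7c of SWI/SNF, in Baz2b, an ISWI partner, and in Rad54b, a recombination motor. The leading Mta3 peak had 4.88, 5.05 and 4.25 in WT and 5.65, 5.27 and 5.90 in KO (log2 fold change 0.88, unadjusted p = 0.0122, adjusted p = 1 in limma). Promoter peaks were found for 50 of the 60 genes, with a median log2 fold change of 0.03 and a median WT level of 7.60 per kb. By family this level was 7.52 for INO80, 7.40 for SWI/SNF, 7.98 for CHD, 7.94 for ISWI and 7.71 for the further SNF2 enzymes.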

How the data were processed

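ATAC-seq libraries came from 50000 cells each of 3 WT and 3 Smarcad1-KO crypt preparations, grouped by sample title and read as 50 bp pairs. The authors trimmed with Trim Galore 0.4.1, mapped to GRCm38 with Bowtie2 2.2.5, removed duplicates and reads under a mapping quality of 20, and called 1 set of MACS peaks in SeqMonk. Which libraries were pooled for the calls is not given in the sources used here. The deposited values are log2 read counts per peak, normalized by the authors to the largest library. A second deposited table, which lists peaks past the authors' edgeR threshold with its adjusted p-values, was not used, so the 0 calls of limma are not those of the authors' test. Peak names are the authors' and fall on the closest gene within 5 kb, so a start can lie in a peak named for a neighbour.

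On the linear scale 100% of values in each library were whole multiples of 1 read (tolerance 0.02), which gave reads in peaks of 4339306 to 16301164. The reads carry no molecular identifiers and may repeat a molecule, so read numbers speak for counting error only. Each peak was tested with limma 3.58.1 in R 4.3.3 (lmFit, eBayes with trend, two-sided, 6 libraries, no covariate, pseudocount or filter), in place of the authors' edgeR, a choice made from the log unit of the table. Recovered reads were used only in an alternative with voom. Benjamini-Hochberg adjustment ran over all 123510 peaks and a call needed an adjusted p below 0.05. On simulated data for these peaks with 200 changed by a log2 of 2, 145 were recovered with 2 false calls. Noise was drawn separately for each peak there, and the largest member difference was 0.62. The simulation therefore does not show what the test finds at changes of that size. Nothing says beyond their labels that libraries came from separate animals, so p-values measure the spread between these libraries.

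Gene starts, lengths and exons came from GENCODE vM21 and sequences from RefSeq windows and the GRCm38.p6 genome. The sequence of the leading Chd7 peak is not reported here. The members and lists were chosen with earlier results of these data known. Named by rule were every member by its promoter peak, the 5 peaks with the smallest p in each direction, promoter peaks with separate groups, the 3 members with most peaks and those without a peak or promoter peak. Other peaks and genes named were chosen after their values were seen. Alternatives were 4 scalings, voom on recovered reads, a minimum mean of 20 normalized reads, a pseudocount of 5, a replicate block, libraries left out, a 2 kb promoter distance, levels per peak, and a level and an overlap rule for counting peaks.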

Additional observations from a re-analysis of the deposited data

How the results depend on the processing

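The count of called member peaks stayed at 0 in every alternative, while calls over all peaks ran from 0 to 272. The smallest adjusted p of the 10 named peaks was 0.183 in limma. Their 10 directions did not change in 150 values. Member peaks at an unadjusted p below 0.05, 1 as reported, numbered 2 with the trimmed mean of M values and with voom, 3 with quantile normalization, 5 without both number 2 libraries and 0 to 4 with 1 library left out. For the 60 other genes of these families this count, 5 as reported, was 8 with median centring, with the trimmed mean and without both number 2 libraries, 9 with quantile normalization, 10 with voom and with promoter and other peaks centred apart, and 3 to 9 with 1 library left out.

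Deviations from the group means correlated at r = 0.42 and 0.41 between WT and KO libraries of number 2 and of number 3, but at 0.04 for number 1. Between WT and KO libraries of unlike numbers r ran from -0.46 to 0.04. Numbers 2 and 3 thus lay above that range and number 1 did not, so the numbers were not taken to pair the libraries. With the replicate block, 0 member peaks were called, beside 272 over all peaks. An unadjusted p below 0.05 was reached by 4 member peaks (2.47% beside 6.87% of all peaks). The 60 other genes then had 17 such peaks among their 180 (13 higher and 4 lower) and 1 call.

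Taken per peak and not per kb, the WT promoter medians were 8.88 for all members, 8.25 for SWI/SNF, 8.68 for ISWI, 9.53 for CHD, 9.87 for INO80 and 8.99 for the other SNF2 genes. Counting only peaks above the median of all peaks left INO80 genes with 7 of 13. Paralog differences per peak were 1.495 (Smarca4 minus Smarca2), -0.13 (Smarcc1 minus Smarcc2), 1.315 (Smarcd2 minus Smarcd3), -0.74 (Arid1a minus Arid1b), -0.41 (Baz1a minus Baz1b), 0.15 (Chd1 minus Chd2), -1.21 (Chd4 minus Chd3), -0.32 (Chd6 minus Chd9) and -0.44 (Srcap minus Ep400). None of these passed at an adjusted p below 0.05, 6 pairs including Ino80 minus Srcap having reached the smallest p at an adjusted p of 0.0521. With 5 libraries no pair can pass (smallest p 0.0625).

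With 1 library left out, paralog differences per kb were 1.07 to 1.37 (Smarca4 minus Smarca2), 0.45 to 0.57 (Smarcc1 minus Smarcc2), 1.51 to 1.59 (Smarcd2 minus Smarcd3), 0.58 to 0.64 (Arid1a minus Arid1b), -0.89 to -0.80 (Baz1a minus Baz1b), -0.71 to -0.56 (Chd1 minus Chd2), -1.09 to -0.996 (Chd4 minus Chd3) and -1.67 to -1.45 (Srcap minus Ep400). KO minus WT of the paralog difference changed sign for Smarca4 minus Smarca2 (-0.57 to 0.083), Smarcd2 minus Smarcd3 (-0.16 to 0.034), Baz1a minus Baz1b (-0.016 to 0.21), Chd6 minus Chd9 (-0.33 to 0.013), Ino80 minus Srcap (-0.047 to 0.23) and Srcap minus Ep400 (-0.44 to 0.091).

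The direction of promoter differences was not stable. In 24 of 28 promoter peaks it turned round at least once over 57 of 420 values, none of them called. Without both number 2 libraries the log2 fold changes were 0.038 for Smarcc2, 0.019 for Smarca5, 0.061 for Baz1b, 0.028 for Ino80 and 0.027 for Hltf. Smarcb1 was at -0.0089 with quantile normalization and -0.017 with promoters centred apart, and Chd7 at -0.0056 and -0.013 there and -0.020 with voom. With 1 library left out the ranges were Smarcd2 -0.068 to 0.22, Smarcc1 -0.13 to 0.33, Arid1a -0.083 to 0.28, Smarcc2 -0.45 to 0.21, Smarcb1 -0.15 to 0.12, Smarcd3 -0.065 to 0.38, Arid1b -0.23 to 0.21, Brd7 -0.061 to 0.35, Smarca2 -0.35 to 0.51, Smarca5 -0.36 to 0.27, Baz1b -0.22 to 0.10 and Bptf -0.25 to 0.15. For the others they were Baz1a -0.20 to 0.31, Chd6 -0.64 to 0.11, Chd2 -0.11 to 0.37, Chd9 -0.41 to 0.17, Chd1 -0.33 to 0.16, Chd7 -0.28 to 0.32, Chd3 -0.026 to 0.17, Ep400 -0.23 to 0.32, Ino80 -0.19 to 0.11, Hltf -0.49 to 0.38, Smarcal1 -0.52 to 0.28 and Hells -0.053 to 0.31. The cause was not tested. Depth limits the peaks off the promoters most, where a library held as few as 3 reads.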
